A study of Arabidopsis thaliana with 5 samples.

Results

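The genes described here are the Arabidopsis genes annotated as ribosomal proteins of the cytosolic type. They were chosen by annotation alone, as nuclear protein-coding genes on chromosomes 1 to 5 whose product holds the words ribosomal protein followed by a name that starts with S, L or P, without products that mention an organelle, a 30S or 50S subunit, a kinase or a methyltransferase. This gave 292 members of 27444 nuclear protein-coding genes, with 117 S names, called 40S members below, and 175 L or P names, called 60S members. In all, 5 libraries from unopened flower buds of 6-week-old plants were used, with 1 library for each condition. dsRNA-seq, which sequences the RNA left after digestion with a single-strand specific ribonuclease and keeps its strand, was made from rdr6 mutant plants in the Col-0 background after 1 round of rRNA depletion (1X Ribominus), from wild-type Col-0 after 2 rounds (2X) and from wild-type Col-0 after 1 round (1X). smRNA-seq was made from rdr6 and from wild-type Col-0. RDR6 is an RNA-dependent RNA polymerase that copies transcripts into double-stranded precursors of small RNAs. Each dsRNA-seq library was made from a pool of 3 biological replicates, so no comparison below has a replicate, and each p-value compares 2 libraries and not genotypes or treatments.

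Each ribosome is built from a small 40S subunit, which binds the mRNA and decodes it, and a large 60S subunit, which joins the amino acids. In plants the proteins of both subunits are encoded by small gene families whose copies are nearly alike, so that a short read often maps to several of them. Introns of ribosomal protein genes are also known hosts of small nucleolar RNA (snoRNA) genes, whose products guide the chemical modification of rRNA and which fold into stable stems.

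The label of cytosolic ribosomal proteins held in part. The annotation note of 136 members places the protein in the cytosolic ribosome, that of 39 members places it in a plastid or mitochondrion, and that of 117 members does neither. These classes differed in their dsRNA level, given throughout as RPKM, the reads per kilobase of gene with introns, scaled to the mapped reads of the library. Members with a cytosolic note had a median level of 4.38 in rdr6, 9.68 in Col-0 2X and 4.63 in Col-0 1X, members with an organelle note had 1.68, 2.83 and 1.55, and members with neither had 1.35, 2.35 and 1.06 in the same libraries. Some members are ribosomal in domain and not in role, such as LOS1 (AT1G56070), an elongation factor 2 that counts as 40S through its S5 domain and had the most reads of any member in rdr6 (698) and in Col-0 2X (1957), against 530 in Col-0 1X. No product names a stalk protein from P0 to P3, and the 2 products whose name starts with P are plastid-specific ribosomal proteins.

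Mapped reads numbered 8193747 in rdr6 dsRNA, 13773151 in Col-0 2X dsRNA, 10294611 in Col-0 1X dsRNA, 11123274 in rdr6 smRNA and 10674768 in Col-0 smRNA. Each read was counted at every location, and the members held 18833, 53595, 21762, 3568 and 4416 reads in that order. Reads with 1 location made up 61.9%, 66.8% and 63.3% of the members' reads in the dsRNA libraries and 26.2% in each smRNA library. Counted once, reads of the members were 0.193%, 0.334% and 0.180% of the mapped dsRNA reads and 0.0313% and 0.0398% of the mapped smRNA reads. In each dsRNA library the 6 floral marker genes and both tapetum marker genes had reads, while the root marker PYK10 had 8, 17 and 19 reads and the root marker WOX5 had 0. The RDR6 transcript had 11 reads in rdr6, 80 in Col-0 2X and 23 in Col-0 1X, which does not check the label, since a mutant allele can still be transcribed.

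Ribosomal protein genes had more double-stranded RNA than most genes. The median member had a level of 2.85 in rdr6, 4.88 in Col-0 2X and 2.49 in Col-0 1X, beside 0.398, 0.588 and 0.321 over all nuclear protein-coding genes. The share of members above the median of all genes was 89.7%, 90.1% and 88.4%. Genes of neighbouring functions lay between the members and the genome. Nuclear genes for ribosomal proteins that name an organelle (20 genes) had medians of 1.25, 1.81 and 0.984, translation factors (78 genes) had 1.21, 1.85 and 0.966, and ribosome biogenesis genes (64 genes) had 0.782, 1.08 and 0.653. These medians carry both how much of each transcript was present and how much of it was base-paired, which cannot be told apart in these libraries, nor can fewer cells that express a gene and less RNA per cell.

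The order of the members was much alike in the dsRNA libraries. As a description over 292 members that share reads between copies, Spearman's rho was 0.96 between rdr6 and Col-0 1X and 0.95 between Col-0 2X and Col-0 1X, beside 0.87 and 0.86 over all genes. In small RNA the rho between rdr6 and Col-0 was lower, at 0.49, beside 0.58 over all genes. There 101 members in rdr6 and 91 in Col-0 had no read, and the part of low counts in this rho was not tested.

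40S members had a median dsRNA level of 3.09 in rdr6, 5.44 in Col-0 2X and 2.71 in Col-0 1X, and 60S members had 2.73, 4.71 and 2.09. The order of the subunits rested on which members and reads were counted. Among members with a cytosolic note, the 63 40S members had medians of 3.98, 9.75 and 4.17 and the 73 60S members had 4.62, 9.60 and 5.04, so that the 60S members were the higher in both 1X libraries. With reads of 1 location alone the 60S members were also the higher in all 3 dsRNA libraries.

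**Figure D1:**
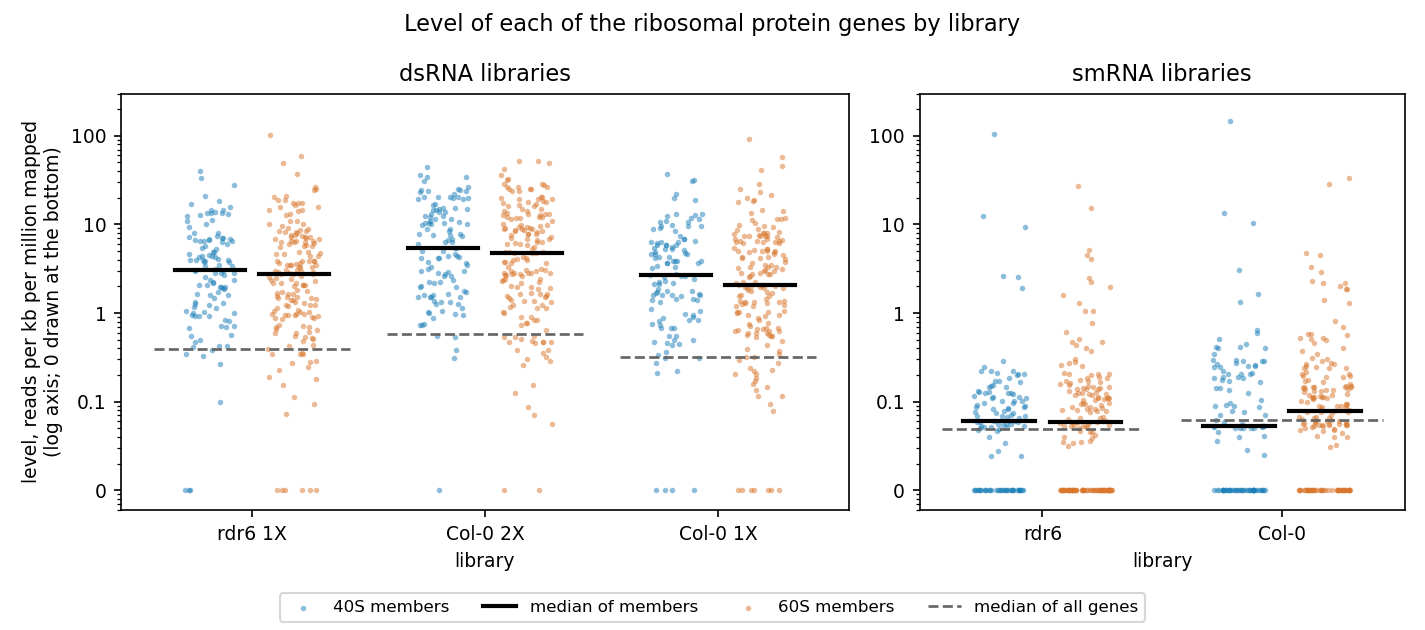
Level of each ribosomal protein gene (y axis, RPKM, log scale with 0 at the bottom) in the 3 dsRNA libraries (left) and the 2 smRNA libraries (right), with 1 point per gene. Black bars are the medians of 40S and 60S members and dashed lines the medians of all protein-coding genes; the dsRNA medians of the members, 2.09 to 5.44, stand well above the dashed lines at 0.321 to 0.588, while the smRNA medians lie near theirs.

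Within a family the copies differed widely. In all, 64 products were shared by at least 2 members and covered 231 of the 292. In Col-0 1X the 12 members named L7Ae/L30e/S12e/Gadd45 ran from 0.145 to 28.6, the 4 members of the L2 family from 0.0944 to 13.4, and the 8 members of the S5 family from 1.60 to 13.1. Other families were even, such as the 3 L36e members, which ran from 3.11 to 6.65.

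The highest levels in both 1X libraries belonged to genes of L41, the shortest ribosomal protein, which sits at the bridge between the subunits in yeast. The L41 family has 5 members, and the lowest level among them was 5.5 in rdr6, 14.9 in Col-0 2X and 9.64 in Col-0 1X. In rdr6, 3 of them stood above every other member. In Col-0 1X, AT5G46430, with reads near a snoRNA gene, stood above 1 of these 3. AT3G08520 had 287 reads in rdr6, 248 in Col-0 2X and 324 in Col-0 1X, at levels of 102, 52.5 and 91.8. AT3G11120 had 228, 205 and 278 reads, at levels of 59.7, 31.9 and 57.9. AT3G56020 had 266, 227 and 280 reads, at levels of 49.0, 24.9 and 41.1. In each of the 3 genes the Col-0 2X library was the lowest in level. Between any pair of them, 63.3% to 83.6% of the reads of a gene in Col-0 1X also mapped to the other, so that they are near to 1 measurement. Their coding sequences, spliced from the TAIR10.1 reference, are given to show how near the copies are: each has 78 bases, with capitals at the 3 bases that are not the same in all 3. They span 2586032 to 2586206 (+), 3481128 to 3481304 (+) and 20790826 to 20791043 (−) on chromosome 3, introns included.
AT3G08520: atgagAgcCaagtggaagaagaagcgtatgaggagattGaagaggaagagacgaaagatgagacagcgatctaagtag
AT3G11120: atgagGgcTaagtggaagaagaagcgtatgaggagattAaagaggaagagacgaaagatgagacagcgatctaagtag
AT3G56020: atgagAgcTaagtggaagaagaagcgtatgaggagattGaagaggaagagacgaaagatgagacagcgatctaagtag

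The 40S genes with the highest levels in Col-0 1X were of another kind. AT2G07734, an S4 family member, had levels of 33.7 in rdr6, 24 in Col-0 2X and 36.6 in Col-0 1X. In Col-0 1X, 150 of its 513 sense reads lay at 1 stretch of 34 nt and 93 at the stretch longer by 1 base. AT2G07696, an S7p/S5e family member, had 40.1, 31.0 and 32.1, and AT2G07675, an S12/S23 family member, had 28.1, 34.4 and 30.6. All 3 lie close to each other on chromosome 2, where a large insertion of mitochondrial DNA is known, and every one of their reads had more than 1 location. The next were AT5G18380 and AT2G09990, a pair whose product names an S5 domain and whose notes place them in the cytosolic ribosome. AT5G18380 had 166, 668 and 249 reads, at levels of 18.5, 44.4 and 22.1. AT2G09990 had 130, 500 and 207 reads, at levels of 15.7, 36 and 19.9, and 90.8% of its Col-0 1X reads were shared with AT5G18380. Of the genes with most reads in a UTR, emb2386 (AT1G02780), an L19e family gene named for an embryo-defective mutant, had 44 reads of 359 in its 3′ UTR in rdr6, 215 of 1256 in Col-0 2X and 67 of 414 in Col-0 1X, with levels over the gene of 25.2, 52.5 and 23.2.

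The double-stranded reads of the members came almost wholly from the sense strand. Antisense reads made up 1.94% of the members' reads in rdr6 (95% Wilson interval 1.76 to 2.15), 0.925% in Col-0 2X (0.848 to 1.01) and 0.698% in Col-0 1X (0.596 to 0.818), while over all protein-coding genes they made up 39.3%, 17.7% and 30.7%. The intervals cover counting error only. Genes of neighbouring functions also had low antisense shares, so a low share was not particular to the members. Organellar ribosomal protein genes had 1.6%, 1.12% and 2.65%, translation factors 3.52%, 1.48% and 1.73%, and ribosome biogenesis genes 4.2%, 0.865% and 1.08%. All of these were above the members in Col-0 1X. The share over all genes is of summed reads. In Col-0 1X, 14372 of 22602 genes with a read had no antisense read, beside 227 of 281 members. With reads of 1 location the antisense share was 0.780%, 0.366% and 0.494% in the members, and 17.3%, 5.04% and 11.7% over all genes. An exact two-sided binomial test of sense against antisense reads within a library, with Benjamini-Hochberg adjustment over all genes with a read, called 239 of 283 members more sense in rdr6 (84.5%, against 49.5% of all genes), 268 of 289 in Col-0 2X (92.7%, against 64.6%) and 251 of 281 in Col-0 1X (89.3%, against 52.7%). It called 1, 2 and 0 members more antisense, where 3.27%, 2.66% and 2.45% of all genes were. Members have more reads than the median gene and so more often pass, and the part of depth in these shares was not tested.

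Sense reads outnumbered antisense reads in every part of the members. In the coding sequence of the members, log2 of sense over antisense reads was 6.10 in rdr6, 8.38 in Col-0 2X and 8.22 in Col-0 1X, beside 0.87, 3.16 and 1.33 over all genes. In the 5′ UTR the members had 5.08, 6.88 and 7.67, beside 0.83, 2.24 and 1.74. In introns they had 5.83, 4.2 and 7.73, beside 0.41, 0.98 and 1.25. The order of these parts was not secure in the 1X libraries. In Col-0 1X the 95% intervals overlapped, at 7.84 to 8.60 for the coding sequence, 6.54 to 8.80 for the 5′ UTR and 6.68 to 8.78 for introns, and with the bases of non-coding RNA genes counted, introns stood at 8.57 in rdr6 and 10.76 in Col-0 1X, above the coding sequence at 5.93 and 8.08. The 3′ UTR was the least uneven part of the members in both 1X libraries, with 4.41 in rdr6 and 4.77 in Col-0 1X, and had 4.50 in Col-0 2X, beside 0.12, 0.20 and 0.25 over all genes in those libraries. By subunit, the 3′ UTR value in rdr6 was 4.92 (95% interval 4.32 to 5.51) in 40S members and 4.10 (3.69 to 4.51) in 60S members, which overlap. In Col-0 2X it was 6.61 (6.02 to 7.20) and 3.86 (3.66 to 4.06), and in Col-0 1X 6.20 (5.36 to 7.05) and 4.24 (3.87 to 4.61). A few 60S genes held much of this, with 112 of the 213 antisense reads of 60S 3′ UTRs in AT5G55140 in Col-0 2X, and 22 and 13 of the 61 in AT3G28900 and AT4G13170 in Col-0 1X. Antisense reads moved with overlapping genes. In all, 65 members overlap a protein-coding gene on the opposite strand, and the antisense share was 2.39%, 1.51% and 1.89% in them and 1.86%, 0.804% and 0.483% in the other 227. Without them the 3′ UTR value was 5.80 in rdr6, above that of the 5′ UTR at 4.93, and 6.58 in Col-0 1X.

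**Figure D2:**
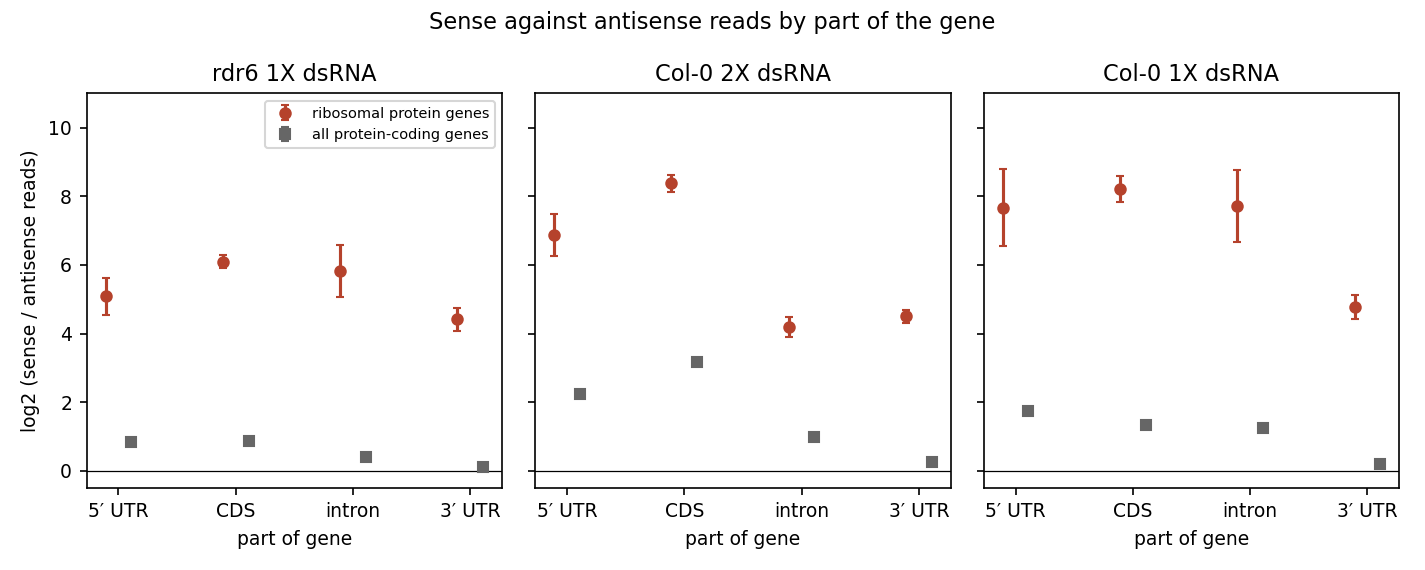
Log2 of sense over antisense dsRNA reads (y axis) in the 5′ UTR, coding sequence, introns and 3′ UTR, summed over the ribosomal protein genes (circles) and over all protein-coding genes (squares), in each dsRNA library; bars are 95% intervals from counting error. In the coding sequence the members stand at 6.10, 8.38 and 8.22 and all genes at 0.87, 3.16 and 1.33.

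Part of the antisense reads lay in a few genes as many reads at 1 location, and the rest were spread over many sequences. In Col-0 1X the 72 antisense reads in 3′ UTRs were 66 sequences, and the 13 of AT4G13170 were 13 sequences. In rdr6, 89 of the 366 antisense reads lay in AT2G43030, an L3 family gene with an organelle note, as 5 sequences. Of these reads, 88 lay at 1 stretch of 18 nt, where reads had 4 locations in the genome. In Col-0 2X, 112 of the 496 lay in AT5G55140, an L30 family gene, at 1 stretch of 18 nt. They were 9 sequences, and reads there had 3 locations in the genome. Another 73 lay in RPL9 (AT3G44890), which had no antisense read in either 1X library. In Col-0 1X the first was AT3G28900, an L34e gene, with 22 of 152, and it had 20 antisense reads in rdr6 and 22 in Col-0 2X. Of the 5 members with the most antisense reads of 1 location in Col-0 1X, each overlaps a gene on the opposite strand. AT4G13170 and AT3G01790, both of the L13 family, had 7 and 5 antisense reads in rdr6, 25 and 10 in Col-0 2X and 13 and 5 in Col-0 1X. PSRP3/2 (AT5G15760), which encodes a plastid ribosomal protein, had 3, 19 and 4 antisense reads and 0, 1 and 0 sense reads, so that its signal in these libraries was nearly wholly antisense. AT5G27850, an L18e/L15 gene, had 0, 3 and 4 antisense reads, beside a further 6, 32 and 12 on an snoRNA gene (AT5G04545) on the opposite strand of its 3′ UTR, which were not counted for the member.

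Reads in the members fell mostly in the coding sequence, with a sense density of 10.5 RPKM in rdr6, 18 in Col-0 2X and 9.31 in Col-0 1X. The 5′ UTR had 2.69, 4.18 and 2.76, the 3′ UTR 2.21, 4.53 and 2.22, and introns 0.609, 0.820 and 0.904. Over all genes the coding sequence had 2.25, 2.71 and 1.74 and introns 1.54, 0.7 and 1.38. Along the coding sequence, each of 10 equal parts held on average between 7.64% and 12.5% of the reads of the members with at least 20 reads. The medians over members, 4.23% to 10.1%, were below the mean in each part, so that single members were less even than the average.

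Some introns of the members hold snoRNA genes. In all, 8 members, 2.74% of them, hold a snoRNA gene on their own strand, as do 46 of all protein-coding genes (0.168%). All 8 are 60S members, and their 13 snoRNA genes lie in introns. Reads on snoRNA genes were not counted for the hosts, and they were many: 4532 sense reads in rdr6, 9639 in Col-0 2X and 10621 in Col-0 1X, with 0 antisense reads in each. For scale, these come to 0.245, 0.182 and 0.491 of the sense reads that all 292 members hold elsewhere. Small RNA libraries held 190 sense reads in rdr6 and 360 in Col-0 on the same genes.

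The snoRNA gene with the highest level in both 1X libraries was AT4G06705, in the second intron of AT4G17390, an L23/L15e gene, with 1020 RPKM in rdr6, 619 in Col-0 2X and 2500 in Col-0 1X. AT5G08180 holds 3 of them in its second intron, and is itself annotated with the domain of Nhp2, a protein of the H/ACA class of snoRNA particles. Of its genes, AT5G01495 had 339, 1470 and 494, AT5G01505 had 592, 741 and 1140, and AT5G01515 had 527, 1090 and 794. AT1G04480, an L14p/L23e gene, also holds 3 in 1 intron, and these were very unlike each other: AT1G04277 had 426, 301 and 778, AT1G04273 had 3.39, 5.55 and 2.02, and AT1G04267 had no read in any library. AT1G08937, in the third intron of AT1G67430, had 353, 170 and 543. AT1G06087, in the third intron of AT1G27400, had 263, 321 and 475, and both of these hosts encode L22p/L17e proteins. AT5G06825, in the second intron of AT5G46430, had 377, 294 and 544.

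The sequences of 6 of these genes are given from the TAIR10.1 reference with capitals at an ACA near the 3′ end. They are the 6 with the most reads in Col-0 1X among the 8 genes that hold this ACA, and were picked after their values were seen. AT1G04277, which lacks it, had 492, 585 and 1129 reads, more in each library than AT1G08937 (385, 311 and 744) or AT1G06087 (265, 544 and 601). AT1G08937 lies on chromosome 1 at 25262574 to 25262706 (+), AT1G06087 on chromosome 1 at 9515628 to 9515750 (+), AT4G06705 on chromosome 4 at 9715045 to 9715195 (−), and AT5G01495, AT5G01505 and AT5G01515 on chromosome 5 at 2632300 to 2632416, 2632524 to 2632665 and 2632770 to 2632923 (−).
AT1G08937: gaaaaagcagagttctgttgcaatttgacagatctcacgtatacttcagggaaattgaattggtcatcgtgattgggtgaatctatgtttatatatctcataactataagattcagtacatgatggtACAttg
AT1G06087: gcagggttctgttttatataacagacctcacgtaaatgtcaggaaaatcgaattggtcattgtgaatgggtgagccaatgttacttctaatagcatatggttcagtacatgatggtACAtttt
AT4G06705: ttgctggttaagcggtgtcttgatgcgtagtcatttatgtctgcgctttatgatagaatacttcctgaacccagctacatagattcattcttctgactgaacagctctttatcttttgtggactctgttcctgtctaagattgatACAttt
AT5G01495: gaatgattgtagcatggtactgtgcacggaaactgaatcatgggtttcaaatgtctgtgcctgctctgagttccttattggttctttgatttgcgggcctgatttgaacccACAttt
AT5G01505: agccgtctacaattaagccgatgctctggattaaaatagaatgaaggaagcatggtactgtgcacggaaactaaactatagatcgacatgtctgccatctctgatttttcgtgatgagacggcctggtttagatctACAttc
AT5G01515: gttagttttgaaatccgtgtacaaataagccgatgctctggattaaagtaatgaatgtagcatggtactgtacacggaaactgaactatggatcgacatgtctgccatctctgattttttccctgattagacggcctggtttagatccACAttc

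H/ACA snoRNAs carry an ACA close to their 3′ end, and C/D snoRNAs carry short C and D boxes near their ends. Among the 13 genes, 8 (61.5%) hold ACA within their last 9 bases, beside 25.8% of all 287 nuclear snoRNA genes, 10.8% of the opposite strands of those genes and 8.56% of intron windows of 140 bases. None of the 13 holds TGATGA near its start together with CTGA near its end, beside 41.8% of all snoRNA genes. These matches describe letters and not sites. AT5G01505 and AT5G01515, neighbours in 1 intron, were identical at 82.7% of aligned positions, and AT1G08937 and AT1G06087, from a pair of L22p/L17e genes, at 74.6%.

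**Figure D3:**
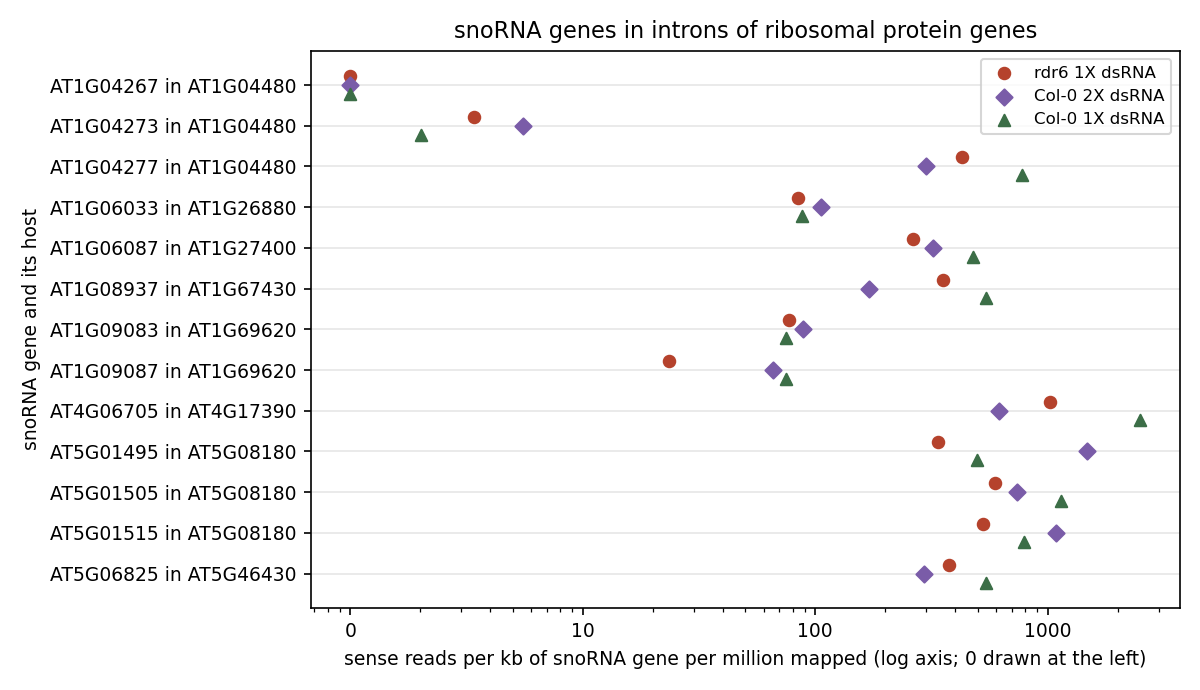
Sense RPKM of the snoRNA gene (x axis, log scale with 0 at the left) for the 13 snoRNA genes in introns of ribosomal protein genes (rows, with the host), in the 3 dsRNA libraries (symbols). The highest is AT4G06705 at 2500 in Col-0 1X, and AT1G04267 has no read.

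Reads ran past the annotated ends of some of the snoRNA genes. In Col-0 1X, AT5G08180, AT5G46430 and AT1G69620 had 563, 551 and 85 reads within 100 bases of a snoRNA gene on the same strand. The other hosts had 0 to 6. Of the sense intron reads that were counted for the members, 69.7% in rdr6, 58.8% in Col-0 2X and 81.5% in Col-0 1X lay within 100 bases of a snoRNA gene on the same strand, and the rest of the members' introns had a density of 0.185, 0.338 and 0.167 RPKM. At AT1G08937 the commonest first base was the same in each of the 5 libraries, 12 bases before the annotated start. It held 46.1%, 24.4% and 45.1% of the reads there in the dsRNA libraries. Other genes were unlike it. In the dsRNA libraries the commonest first base lay 33, 34 and 34 bases inside AT1G06087, and 75, 15 and 74 bases before AT5G06825. Near AT1G08937 but outside its annotation, rdr6 had 3 reads, Col-0 2X had 205 and Col-0 1X had 3. Reads were placed by their middle base. A short read from the commonest first base of AT1G08937 can thus count as outside, and a longer one as inside. Of the reads on or near this gene, 135 of 388, 28 of 516 and 274 of 747 had 38 nt. The part of read length in these counts, and in the levels of AT1G08937 and its host, was not tested.

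The level of 3 hosts in the ranking rested on these reads. AT5G46430, an L32e gene, had 285 reads in rdr6, 499 in Col-0 2X and 623 in Col-0 1X, of which 231, 264 and 551 lay within 100 bases of its snoRNA gene. Elsewhere it had 54, 235 and 72 reads, at levels of 5.01, 13.0 and 5.31. AT5G08180 had 256, 406 and 577 reads, and 20, 45 and 14 of them lay elsewhere. RPL34 (AT1G69620), an L34 gene with 2 snoRNA genes, had 150, 518 and 163 reads, and 70, 313 and 78 of them lay elsewhere. Of the 3, AT5G08180 had the fewest reads away from its snoRNA genes in each library.

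In the rdr6 and Col-0 dsRNA libraries after 1 round of depletion, members had like levels. A gene was called where the scaled ratio was at least 2 and the exact one-sided Audic-Claverie p was under 0.001, with no adjustment over genes. Of 286 members with a read, 5 were called higher in rdr6 (1.75%, against 5.53% of all genes) and 1 lower (0.350%, against 0.996%). The median log2 ratio was 0.13 over the members and 0.33 over all genes, the general shift of this scaling, and the ratio of summed reads was 0.12 and 0.51. On scaling that sets the median gene to 0 (TMM or DESeq2 size factors) 1 member, RPL12-A, was called higher and 8 lower. Of all genes, 3.36% were called higher and 1.69% lower with DESeq2 factors.

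Of the 5 genes called higher in rdr6, 4 were pairs of copies. RPL12-A (AT3G27830) had 73 reads in rdr6 and 31 in Col-0 (log2 ratio 1.56, exact p = 8.65e-08), and RPL12-C (AT3G27850) had 71 and 36 (1.31, exact p = 3.59e-06). L12 in plants includes plastid forms, and the notes of these members place them in neither compartment. The pair shared 86.3% of the reads of RPL12-A in rdr6 and 83.9% in Col-0. AT1G33120, an L6 family gene, had 227 reads in rdr6 and 123 in Col-0 (1.21, exact p = 8.61e-15). PGY2 (AT1G33140), a gene of the same family needed for normal leaf polarity, had 232 and 127 (1.2, exact p = 8.00e-15). These 2 genes shared 97.8% of the reads of AT1G33120 in rdr6 and 97.6% in Col-0. The fifth, AT4G26060, had 19 reads in rdr6 and 4 in Col-0, and 15 of its 16 antisense reads in rdr6 were 1 sequence of 19 nt. Of the 8 hosts of snoRNA genes, 3 had a log2 ratio below 0 by their whole count and none passed the call. AT5G46430 and AT5G08180 stood at −0.80 and −0.84, but elsewhere in the gene AT5G46430 stood at −0.09 and AT5G08180 at 0.84.

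The snoRNA genes in the members had fewer reads in rdr6 than in Col-0. Of 12 with reads in both libraries, 10 had a ratio below 1, with a median log2 ratio of −0.61, and of the other nuclear snoRNA genes 224 of 263 did, with a median of −0.67. In small RNA the medians were −1.21 and −0.96. Of the 8 hosts, counted without the reads within 100 bases of a snoRNA gene, the log2 ratio of rdr6 over Col-0 dsRNA ran from −0.40 to 0.84, and none passed the call. The part of library composition in the snoRNA ratios was not tested.

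Members had more scaled reads in the Col-0 2X library than in the Col-0 1X library. With the same rule, 106 of 290 members were called higher in Col-0 2X than in Col-0 1X (36.6%, against 16.2% of all genes) and 0 lower (against 3.90%). Among the 106 were 43 of 116 40S members and 63 of 174 60S members. Members have more reads than the median gene and so more often pass. Among genes with at least 20 reads in both libraries together, the same 106 were called higher, against 26.3% of all such genes. The part of depth was not tested further. The median log2 ratio was 1.01 over the members and 0.86 over all genes, so that by medians most of it is a shift shared with the median gene. By summed reads the members and all genes were unlike, with log2 ratios of 0.88 and 0.05. On TMM or DESeq2 scaling, which removes that shift, 5 members were called higher and 7 lower. Of all genes, 1.28% were called higher and 6.57% lower with DESeq2 factors. Of the lists of neighbouring function, 4 of 20 organellar ribosomal protein genes, 23 of 78 translation factors and 13 of 62 ribosome biogenesis genes with a read were called higher, and 1 translation factor lower.

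Of the members called higher with at least 50 reads in both libraries together, the largest ratio was that of AT5G55140, with 130 reads in 2X and 7 in 1X (log2 ratio 3.8, exact p = 1.33e-23). Of the 130, 112 lay at the 1 antisense stretch of 18 nt, and the sense reads of the gene numbered 18 and 7. AT1G26880, an L34e gene, had 236 reads in 2X and 30 in 1X (2.56, exact p = 2.47e-29), from 211 and 24 in the coding sequence. AT5G59850, an S8 gene of the 40S subunit, had 206 and 32 (2.27, exact p = 1.11e-22). AT1G29070, an L34 gene with an organelle note, had 62 and 10 (2.21, exact p = 1.30e-07). AT1G67430 had 545 and 90 (2.18, exact p = 1.01e-54), and 340 and 87 without the reads within 100 bases of its snoRNA gene (1.55).

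Some members went the other way and did not pass the call, since their ratio stayed short of 2-fold. At an unadjusted Audic-Claverie p under 0.05, 7 members were lower and 208 higher in 2X. The share of all genes at this p is not given, so these counts have no background. The L41 genes AT3G08520, AT3G11120 and AT3G56020 had log2 ratios of −0.81, −0.86 and −0.72, with 145, 105 and 158 reads of the coding sequence in 2X and 237, 216 and 242 in 1X. AT5G46430 stood at −0.74 by its whole count, but at 1.29 (exact p = 1.14e-12, called higher) without the reads near its snoRNA gene, and AT5G08180 stood at −0.93 and 1.26 (exact p = 0.00184, not called). AT2G07734 stood at −0.61. In this gene 1 stretch of 34 nt held 1 of 451 sense reads in 2X and 150 of 513 in 1X. The stretch longer by 1 base held 3 and 93. The ratio of AT2G07734 without these reads was not tested.

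Read length moved with this comparison. The median length of the members' reads was 24 nt in Col-0 2X and 37 nt in Col-0 1X, beside 30 nt in rdr6, and reads of 38 nt, the longest, made up 17.2% of them in 2X and 49.5% in 1X, beside 34.9% in rdr6. The labels also give the 2X library another 3′ adaptor. Without reads of 20 to 25 nt, 43 members were called higher and 7 lower in 2X, against 7.04% and 0.968% of all genes. The part of read length and of the adaptor in the ratios was not tested.

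**Figure D4:**
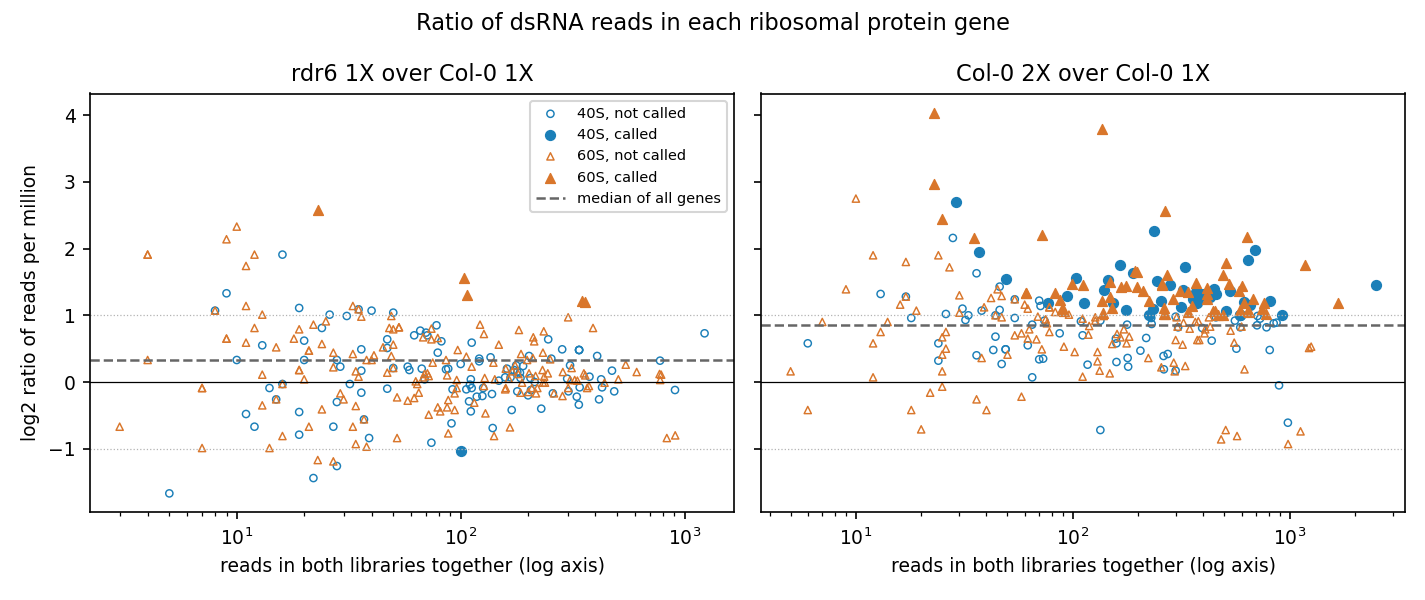
Log2 ratio of scaled dsRNA reads (y axis) against the reads of a gene in both libraries together (x axis, log scale), for members with a read in both libraries, in rdr6 1X over Col-0 1X (left) and Col-0 2X over Col-0 1X (right); circles are 40S and triangles 60S members, filled where called, and the dashed line is the median of all genes. On the left 6 members are called around a median of all genes of 0.33, and on the right 106 are called, all above, around 0.86.

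Small RNAs were few in the ribosomal protein genes and came from few of them. The median member had 1 read in each library, and 10 members held 83.6% of the members' reads in rdr6 and 83.1% in Col-0. The median level was 0.0597 in rdr6 and 0.0675 in Col-0, beside 0.0487 and 0.0619 over all genes, but the level of the summed reads was 0.686 and 0.885 in the members and 8.14 and 8.51 over all genes. The share of antisense reads was 13.1% in rdr6 and 10.1% in Col-0, beside 48.0% and 51.1% over all genes. Without the 3 copies on chromosome 2, which hold many sense reads, it was 23.1% and 18.5%. More sense reads were called in 11 of 191 members in rdr6 and in 11 of 201 in Col-0 (5.76% and 5.47%, against 7.11% and 6.63% of all genes), and more antisense reads in 2 and 1 (against 5.24% and 4.71%).

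AT2G07734, the S4 gene copy on chromosome 2, held 1615 of the 3568 reads in rdr6 and 2150 of the 4416 in Col-0. Of these, 1602 and 2133 were sense, and 1563 and 2106 had 26 nt or more. Most had 1 first base. The reference bases there are shown because 1 stretch of 34 nt and the stretch longer by 1 base held nearly all of them. The 34-nt stretch, on chromosome 2 at 3473658 to 3473691 (−), had 938 reads in rdr6 and 1159 in Col-0, with 1 further location. The 35-nt stretch had 529 and 794.
34 nt: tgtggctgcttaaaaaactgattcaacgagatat
35 nt: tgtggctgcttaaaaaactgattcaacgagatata

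The second was AT3G28900, an L34e gene with a cytosolic note, with 736 reads in rdr6 and 744 in Col-0, of which 619 and 647 were sense and 523 and 543 had 24 nt. It is also the member with the most sense dsRNA reads in a 3′ UTR in Col-0 1X, with 84 in rdr6, 110 in Col-0 2X and 119 in Col-0 1X, and it overlaps a gene on the opposite strand. AT2G07696 had 124 and 131 small RNA reads, and AT3G58660, an L1p/L10e gene, had 80 and 77, of which 41 and 57 had 24 nt. AT1G36240, of the L7Ae/L30e/S12e/Gadd45 family, had 61 reads in rdr6 and 31 in Col-0, all of 1 location, with 30 sense and 31 antisense in rdr6 and 16 and 15 in Col-0 (exact p = 0.00218, not called). It had 2, 10 and 2 dsRNA reads. AT2G33370, an L14p/L23e gene, was nearly wholly antisense in small RNA, with 43 of 45 reads in rdr6 and 37 of 38 in Col-0. Only 4 and 3 of these antisense reads had 1 location. At 1 stretch of 23 nt, where reads had 4 locations, lay 26 and 19 of them. AT5G46430 had 33 and 32 reads, of which 31 and 30 had 26 nt or more, and 32 and 30 lay within 100 bases of its snoRNA gene.

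Between rdr6 and Col-0, 0 of 246 members with a small RNA read were called higher (against 0.266% of all genes) and 2 lower (0.813%, against 0.672%). At an unadjusted Audic-Claverie p under 0.05, 2 members were higher and 11 lower. The share of all genes at this p is not given, so these counts have no background. The median log2 ratio was −0.13 over the members and −0.06 over all genes. AT2G27535, an L10A family gene, had 146 reads in rdr6 and 309 in Col-0 (log2 ratio −1.14, exact p = 2.49e-16), of which 107 and 230 had 24 nt. PGY1 (AT2G27530), an L10a gene that also affects leaf polarity, lies next to it and had 25 and 53 (−1.14, exact p = 0.000545), of which 88.0% and 96.2% also mapped to AT2G27535. The 2 calls are thus near to 1 measurement. In double-stranded RNA their order was turned round, with 134 reads of PGY1 in rdr6 and 152 in Col-0 1X, against 7 and 20 of AT2G27535. The reference at the commonest 24-nt location in each gene is shown to set the copies side by side. These are bases of the genome and not of the reads, which were aligned with mismatches allowed. The location in AT2G27535, on chromosome 2 at 11765511 to 11765534 (−), had 20 reads in rdr6 and 38 in Col-0, and that in PGY1, at 11764299 to 11764322 (−), had 18 and 36. Reads there had 2 locations, so these counts are not of separate small RNAs.
AT2G27535: ggaaaatctgaggagaagaaacgt
PGY1: ggaaaatctgaggagaagaagcgt

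Without the 3 copies on chromosome 2, reads of 24 nt made up 58.9% of the members' sense small RNA reads in rdr6 and 58.0% in Col-0, beside 69.6% and 66.2% over all genes. With the copies in, the share in Col-0 was 27.0%.

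**Figure D5:**
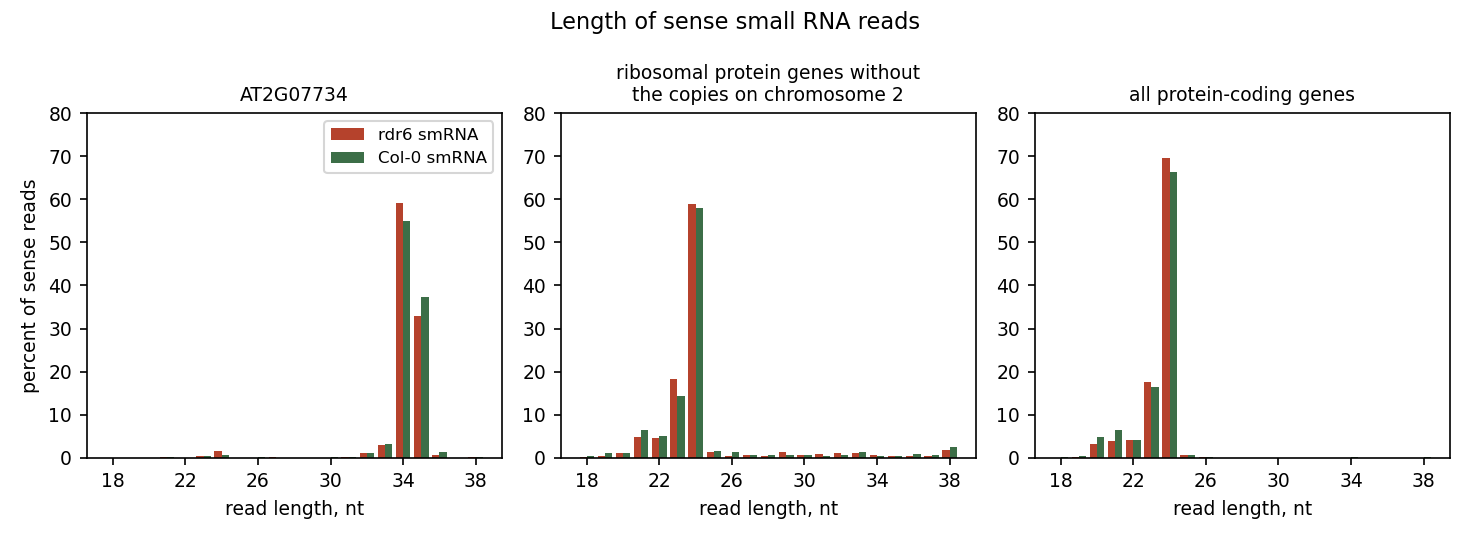
Share of sense small RNA reads (y axis, percent) at each read length (x axis, nt) in rdr6 and Col-0 for AT2G07734 (left), for the ribosomal protein genes without the 3 copies on chromosome 2 (middle) and for all protein-coding genes (right). AT2G07734 peaks at 34 nt, and the other sets at 24 nt, where the members stand at 58.9% in rdr6 and 58.0% in Col-0.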

How the data were processed

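dsRNA-seq and smRNA-seq of unopened flower buds were used, with 1 library per condition. The counts deposited by the authors are reads per non-redundant sequence, collapsed, trimmed of the 3′ adapter and aligned to TAIR9 with cross_match at every location, up to 6% mismatch. Gene models and sequences came from TAIR10.1, whose nuclear coordinates were checked against the locations (100% of 19759 to 19992 pairs alike per library).

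Here each read was counted at every location, by its middle base and strand, leaving out bases of non-coding RNA genes. Parts followed the representative transcript. A level is RPKM over the gene, introns included, with all mapped reads as the total. Libraries were compared with the one-sided Audic-Claverie test, which has no replicate error, at a ratio of 2 and p of 0.001 over all protein-coding genes with a read, and strands with a binomial test at an adjusted p of 0.05. Ratios to a part with 0 antisense reads used 3 counts. edgeR 4.0.16 and DESeq2 1.42.0 gave scaling factors only. The call between libraries and the strand test were tried on simulated data, and the other steps were not. Counting ran in Python 3.11.15 with pandas 2.3.3 and numpy 2.4.6, tests in scipy 1.17.1 and plots in matplotlib 3.10.9.

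Named members are those the study names, the 5 of each subunit with the highest Col-0 1X level, up to 5 called in each direction with at least 50 reads, the 5 with most antisense or small RNA reads, and the 3 with most reads in introns and each UTR. LOS1, RPL9, AT2G43030, AT2G33370 and AT4G26060 were chosen after their values were seen. Members and lists were chosen with earlier results of these data known. The values of 1 member called lower in rdr6 are not reported here.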

Additional observations from a re-analysis of the deposited data

How the results depend on the processing

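No paired analysis was possible because each condition has 1 library, and for the same reason no library was left out. Settings that kept to members with a cytosolic note, left out the 3 copies on chromosome 2, or left out reads within 100 bases of a snoRNA gene were chosen after seeing the data.

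The log2 ratio of the 40S over the 60S median level in Col-0 1X was 0.38. It was −0.21 with reads of 1 location and −0.27 for members with a cytosolic note, and 0.18 with reads divided by locations, 0.06 without products that name a superfamily, a domain or Clp, and 0.08 by summed reads. In Col-0 2X it was −0.28 with reads of 1 location. In rdr6 dsRNA it was −0.14 with reads of 1 location and −0.21 for a cytosolic note. In rdr6 smRNA it was 0.04, and −0.74 with reads of 1 location, −0.12 with divided reads, −0.48 for a cytosolic note and 0.96 by summed reads. In Col-0 smRNA it was −0.56, and 1.10 by summed reads, to which AT2G07734, a 40S member, adds 1615 reads in rdr6 and 2150 in Col-0.

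Members called in 2X over 1X numbered 106. There were 52 with each sequence counted once, 12 with TMM or DESeq2 factors, 10 at a ratio of 4 and 50 without reads of 20 to 25 nt. For a cytosolic note there were 65 of 135 members with a read, a share of 48.1%, against 36.6% of all members. Of all genes, 9.29% were called higher and 3.87% lower with each sequence counted once, and 3.39% and 2.04% at a ratio of 4. Without reads within 100 bases of a snoRNA gene there were 107. Members called in rdr6 over Col-0 dsRNA numbered 6. There were 11 (1 higher, 10 lower) scaled by protein-coding reads, 1 at a ratio of 4 and 2 for a cytosolic note. Of all genes, 2.49% were called higher and 2.51% lower scaled by protein-coding reads, and 1.62% and 0.539% at a ratio of 4. With reads of 1 location the log2 ratio of RPL12-C was 0.01. Members called in small RNA numbered 2. There were 0 with each sequence counted once or at a ratio of 4, and 1 with reads of 1 location, with divided reads, with any other scaling, or for a cytosolic note.

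More sense reads were called in 251 members in Col-0 1X, and in 126 for a cytosolic note, which leaves fewer members to test. The log2 ratio of sense over antisense reads in the coding sequence was 8.22, and 10.29 with reads of 1 location, 8.95 with divided reads and 10.14 for a cytosolic note. In the 3′ UTR in small RNA it fell below 0 without products that name a superfamily, a domain or Clp (−0.45 in rdr6, −0.27 in Col-0) and without members that overlap an opposite-strand gene (−0.43 in rdr6, −0.42 in Col-0); both leave out AT3G28900. The share of 24-nt reads in Col-0 was 27.0%, and 57.9% with reads of 1 location, 30.3% with each sequence counted once and 58.0% without the 3 copies on chromosome 2. Where no cause is given, the cause was not tested. Small RNA counts of most members are too low to show a difference.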
